A study of Drosophila melanogaster with 2 samples.

Results

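Glial and blood-brain barrier genes of *Drosophila melanogaster* were followed as a set of 10 genes, *moody*, *loco*, *nrv2*, *Nrx-IV*, *Gli*, *cora*, *bdl*, *wrapper*, *gcm* and *Eaat1*. They were taken by name, for their roles in glia, out of 13945 protein-coding genes on the main chromosome arms, and all 10 were found in the annotation. The measurement was chromatin immunoprecipitation with sequencing (ChIP-seq) of Zfh2, a zinc finger and homeodomain protein, carried with GFP at its C terminus (zfh2-eGFP) by a stable transgenic strain, zfh2-GFP. Whole embryos of pooled sexes, 0 to 24 hours old, were used, and the fusion was precipitated with an antibody to GFP. There was 1 group with 2 libraries, given as biological replicates 1 and 2, so no comparison between conditions, genotypes or stages was possible. The embryos were whole, so weak binding in many cells and strong binding in a few glia could give the same call. Nothing here separates glia from the epidermis or trachea, which build the same junctions.

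In insects the blood-brain barrier is a sheet of glia around the nervous system, sealed by septate junctions, which are ladder-like protein complexes between neighbouring cells. The receptor Moody and its G protein partners are needed in these glia for a tight seal. Gcm is the transcription factor that switches neural precursors to a glial fate, and other members serve glia that wrap neurons or take up glutamate.

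Zfh2-eGFP calls at these genes were few in the reproducible list, and the strongest by far lay at *moody*. A call is an interval that the submitters' peak caller reported, and its summit is the position of highest enrichment within it. The list called reproducible here is the submitters' list by the irreproducible discovery rate (IDR), which compares how replicates rank calls. It held 4344 calls, which were the strongest calls of the 2 replicates pooled. Of these, 4303 had a summit in both replicates within 200 bp. A gene was counted as called when a summit lay in it or up to 1 kb (1000 bp) outside. Of the 10 members, 3 were called (*moody*, *cora* and *loco*) and 7 were not. Among all protein-coding genes the share was 33.4%, so the members' count lies near the background. Among the 5713 protein-coding genes no shorter than *gcm* (2248 bp) and no longer than *loco* (19420 bp) the share was 42.7%. A summit within 500 bp of a start site of the gene itself was found for 2 members, *moody* and *cora*, against 24.6% of protein-coding genes. With summits inside the gene alone, *loco* was the 1 member called (11.7% of protein-coding genes), and with the stronger 2172 calls of the list *moody* was (20.6%).

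The sequence at the summits is shown for 5 members, so that promoter and intron sites can be read side by side. Each is 101 bases long on the strand of the gene, 5′ to 3′, in dm6 coordinates read from the RefSeq genome of that assembly, and the capital letter marks the summit base. The windows at *moody* and *loco* are reproducible calls, and those at *nrv2*, *Nrx-IV* and *Gli* are the strongest of their gene in the pooled list and were not in the IDR list.
moody, upstream of the start site (chrX:2050248-2050348, minus strand): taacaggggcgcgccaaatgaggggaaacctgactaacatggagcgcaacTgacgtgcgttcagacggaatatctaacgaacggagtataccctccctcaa
loco, intron, lower signal (chr3R:22627134-22627234, minus strand): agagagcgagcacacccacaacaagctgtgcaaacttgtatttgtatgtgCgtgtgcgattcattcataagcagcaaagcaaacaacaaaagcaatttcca
loco, intron, higher signal (chr3R:22628119-22628219, minus strand): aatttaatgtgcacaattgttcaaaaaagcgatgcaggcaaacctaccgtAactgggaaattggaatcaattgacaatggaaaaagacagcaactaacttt
nrv2, intron (chr2L:6797582-6797682, minus strand): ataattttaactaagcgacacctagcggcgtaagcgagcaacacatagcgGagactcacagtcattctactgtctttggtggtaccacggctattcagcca
Nrx-IV, upstream of the start site (chr3L:12146350-12146450, plus strand): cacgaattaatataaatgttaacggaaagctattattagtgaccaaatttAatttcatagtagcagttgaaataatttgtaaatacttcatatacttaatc
Gli, downstream of the proximal start site (chr2L:15762025-15762125, minus strand): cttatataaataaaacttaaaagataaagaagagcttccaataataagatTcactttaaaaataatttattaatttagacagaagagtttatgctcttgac

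The windows differed in base composition. The *moody* window was 52.5% G and C, above the median of 36.6% over all 4344 summit windows (quartiles 31.7 and 43.6%). The *loco* windows were at 35.6% for the call of higher signal and 42.6% for the other. Those of *nrv2*, *Nrx-IV* and *Gli*, outside the IDR list, were at 47.5, 23.8 and 21.8%. On both strands 6 words were searched. The words were TATCGATA (bound by Dref), GGTCACAC (from the core promoter element of M1BP), TAATTA and CAATTA (homeodomain words), CAGCTG (an E-box) and ATGCGGG (a core word of Gcm). The printed windows held none of them. Of the windows not printed, that of the strongest pooled call at *wrapper* held CAATTA and CAGCTG, and those at *cora* and *gcm* held none. Over all IDR windows their shares were 4.01% for TATCGATA, 2.14% for GGTCACAC, 6.98% for TAATTA, 9.16% for CAATTA, 5.57% for CAGCTG and 0.299% for ATGCGGG.

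The words were then sought over the whole called interval. The *moody* interval, 328 bp long, held none of the 6, and neither did that of *cora*. The *loco* interval of lower signal held TAATTA at 2 places, 102 and 137 bp from its summit, and CAATTA at 1, 133 bp away, with the TAATTA and CAATTA matches at the larger distances overlapping. These words occur in 23.7% and 28.3% of all IDR intervals. The *loco* interval of higher signal held ATGCGGG at 1 place, outside the printed window, a word present in 59 of the 4344 intervals (1.36%). *loco* is known as a target of Gcm in fly embryonic glia. A match of letters is a description and shows no binding.

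Among the members that act in the barrier's receptor pathway, *moody* (FBgn0025631, X 2044292 to 2050120, minus strand) had by far the highest signal. It encodes a G protein-coupled receptor of the subperineurial glia, the layer that forms the barrier. The summit of its call (X 2050138 to 2050465) lay 178 bp before the distal start site, at the 5′ end of the gene. The signal, the caller's enrichment score, was 648 in the pooled replicates, which ranked 77 of 4344, against a median of 113 over the IDR list. Replicate 1 had a signal of 428 (rank 49 of 30000) with its summit 22 bp away, and replicate 2 one of 217 (rank 147 of 29690) with its summit 2 bp away. The strong call was thus found near the top of both lists. The ratio of replicate 1 to replicate 2 was 1.97, against a median of 1.19 over the 4303 IDR calls matched in both (quartiles 0.879 and 1.58). Of the 4654 protein-coding genes with an IDR call, 126 had a higher highest signal. Next above were *CG1275* and *Elp5* at 654 each, and next below *gish* at 645. *moody* lies inside *CG4313*, a gene on the other strand, so the same call counts for both, although the nearest start site is that of *moody*. A further pooled call of signal 21.8 lay in the 5′ UTR of *moody*, 616 bp downstream of the start site. It had 20.1 in replicate 1 and no call of replicate 2 within 200 bp. Its −log10 q-value, where a low value means weak evidence of enrichment, was 0.31, against 3.99 for the strong call.

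*loco* (FBgn0020278, 3R 22619968 to 22639387, minus strand) encodes a regulator of G protein signalling that acts with the Moody receptor and in glial differentiation. It had the most calls of any member, 13 in the pooled list, and 2 of them were reproducible, both in introns. The stronger (3R 22627969 to 22628368) had a pooled signal of 82.5 (rank 3238), 48.6 in replicate 1 and 31.5 in replicate 2. Its nearest start site is that of *lncRNA:CR43475*, 628 bp downstream of the summit, an annotated noncoding gene on the other strand within *loco*. The other (3R 22626984 to 22627383) had a pooled signal of 72.9 (rank 3788), 44.4 in replicate 1 and 30.3 in replicate 2, and lay 550 bp upstream of the proximal start site of *loco*. Both lay low in the IDR list, whose lowest signal was 64.9, and neither was within 500 bp of any start site.

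Further calls at *loco* lay beside these. Of its pooled calls, 4 had a signal of 50 or more, and their summits stood in a row over 3284 bp, with gaps of 985, 1314 and 985 bp. The pair nearest the 3′ end of the gene fell under the IDR threshold. The call with its summit at 22624885 had a pooled signal of 58.9, 43.4 in replicate 1 and 16.1 in replicate 2. The call at 22625870 had 50.2, with 18.3 in replicate 1 and 31.3 in replicate 2, so the replicates ordered these calls differently. *loco* has 4 annotated start sites, and at the most distal a call 45 bp upstream had a pooled signal of 34.9, with 31.7 in replicate 1 and none in replicate 2. A neighbouring call of 29.3 was nearest to *wake*, the divergent neighbour, and matched the same replicate 1 call.

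**Figure D1:**
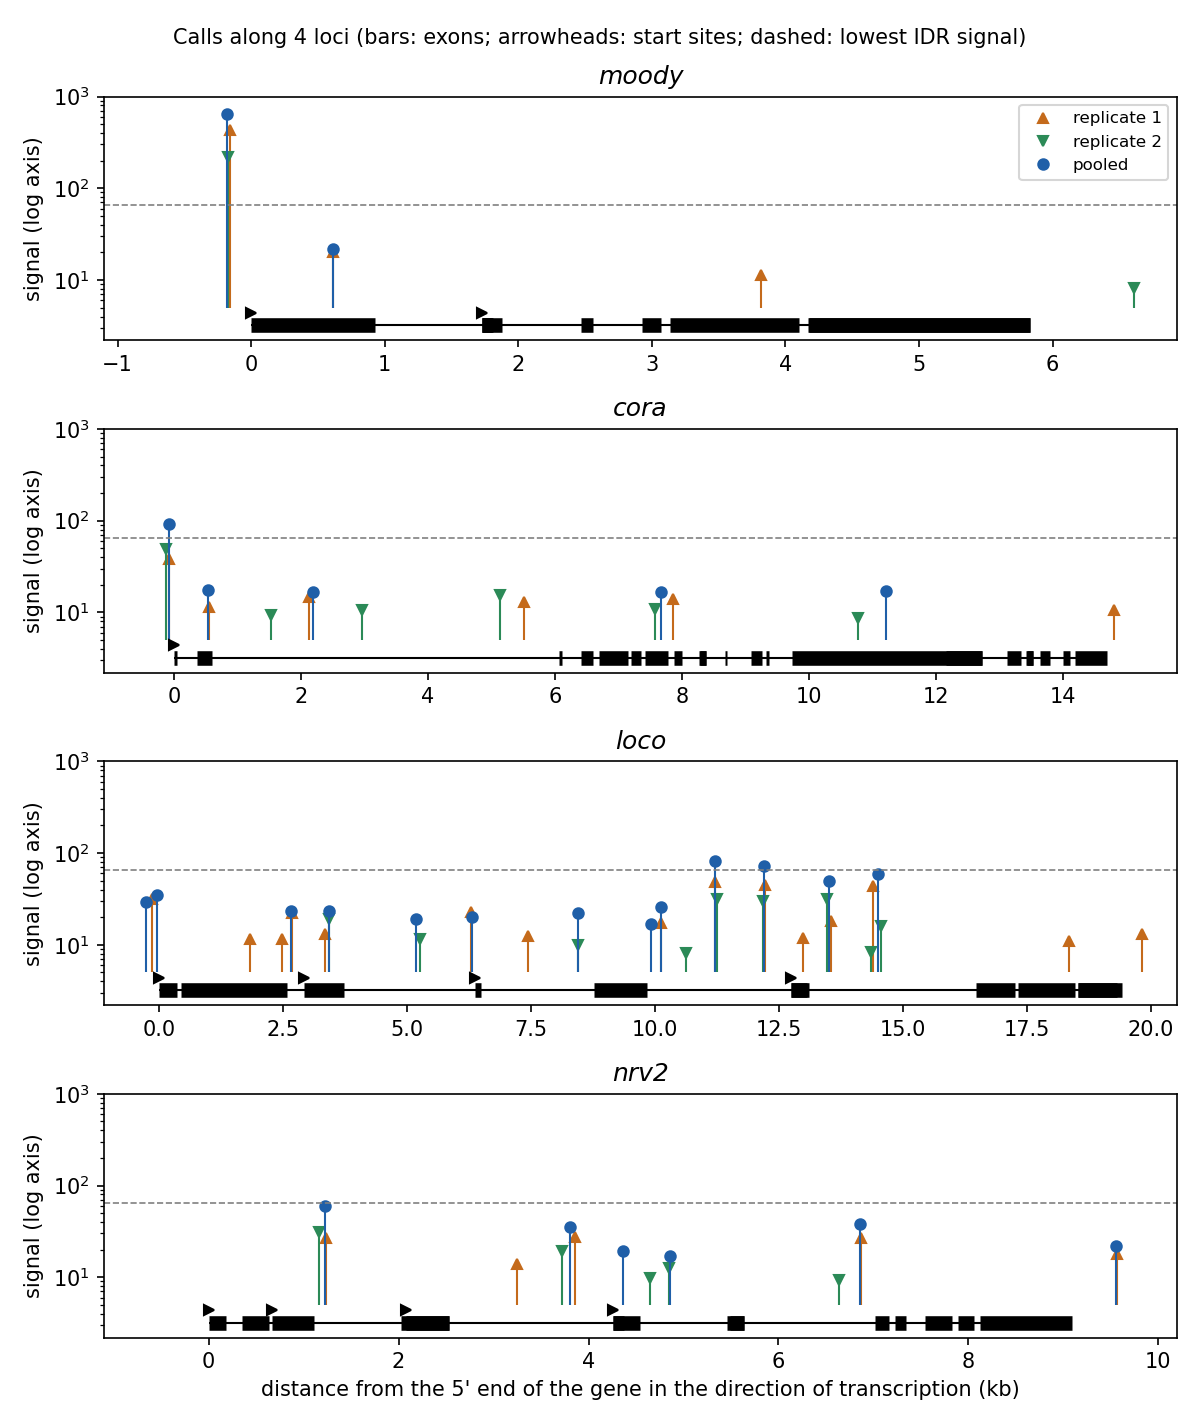
Calls along *moody*, *cora*, *loco* and *nrv2*, by distance from the 5′ end of the gene (kb, horizontal) and signal value (vertical, log axis), for replicate 1, replicate 2 and the pooled replicates; bars are exons, arrowheads start sites, and the dashed line is the lowest signal in the IDR list, 64.9, which applies to pooled calls. *moody* and *cora* carry their strongest call just upstream of the gene, and *loco* carries a row of calls in introns.

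Of the septate junction members, *cora* alone carried a reproducible call. *cora* (FBgn0010434, 2R 19229063 to 19243751, plus strand) encodes Coracle, a FERM domain protein on the inner face of the junction. The summit of its call (2R 19228784 to 19229183) lay 79 bp before the start site, with a pooled signal of 91.2 (rank 2855), 37.9 in replicate 1 and 49.6 in replicate 2. Here the ratio of replicate 1 to replicate 2 was 0.764, against a median of 1.19 over matched IDR calls. The summit also lay within 1 kb of *CG7137*, which ends upstream of *cora* on the same strand. The other 4 pooled calls at *cora* had signals from 16.5 to 17.8.

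*nrv2* (FBgn0015777, 2L 6789770 to 6798862, minus strand) encodes a beta subunit of the sodium and potassium pump, which is also a septate junction component. It came closest to the threshold without passing it. Its strongest pooled call (2L 6797432 to 6797831) lay in an intron, 562 bp downstream of a start site, with a signal of 59.5 and rank 4794, where the first call outside the IDR list had 64.8. The signals were 27.0 in replicate 1 and 30.8 in replicate 2. Among the 4344 strongest calls of replicate 2 taken alone this place was included, at rank 4267, so that *nrv2* was called there, while in replicate 1 it ranked 6538. Another 5 pooled calls at *nrv2* had signals from 16.9 to 38.2. The nearest IDR summit lay 1577 bp past the 3′ end of *nrv2*, with a signal of 84.1 and the start site of *nrv1* as the nearest.

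*Nrx-IV* (FBgn0013997, 3L 12146519 to 12156990, plus strand) encodes Neurexin IV, a transmembrane protein of the junction. Its strongest pooled call (3L 12146200 to 12146599) lay 119 bp upstream of the start site with a signal of 37.0 and rank 8318, 15.3 in replicate 1 and 22.0 in replicate 2. It also lay within 1 kb of *eIF3l*, the divergent neighbour. A call of 30.3 lay 154 bp downstream of the start site of *CG32099*, a gene inside *Nrx-IV*, with 19.8 in replicate 1 and 8.13 in replicate 2. *Gli* (FBgn0001987, 2L 15756002 to 15762758, minus strand) encodes Gliotactin, found where 3 cells meet, and its 3 pooled calls all had a summit in both replicates. The strongest (2L 15761875 to 15762274) had a signal of 47.6 and rank 6197, with 18.2 in replicate 1 and 26.7 in replicate 2, 333 bp downstream of the proximal start site. The others had 29.6 in an intron and 26.4 at 57 bp downstream of the distal start site. All calls at *Nrx-IV* and *Gli* were thus under the threshold. The ratios of replicate 1 to replicate 2 at their strongest calls were 0.696 and 0.682, against a median of 1.19 over matched IDR calls.

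Genes of glial fate, wrapping and transport had the weakest calls. *gcm* (FBgn0014179, 2L 9579498 to 9581745, minus strand) had 2 pooled calls. The one of 19.0 was nearest to the start site of *CG31709*, with 18.4 in replicate 1 and none in replicate 2. The other had 16.4 and lay 455 bp downstream of the start site of *gcm*, with 9.38 in replicate 2 and none in replicate 1. *wrapper* (FBgn0025878, 2R 22379637 to 22382675, plus strand), which encodes an immunoglobulin superfamily protein on midline glia, had pooled calls of 23.8 and 17.4. Both lay downstream of the gene, near the start site of *CG13506*, and matched replicate 1 calls of 21.3 and 16.3 with none in replicate 2. No call at *gcm* or *wrapper* was therefore found in both replicates at the same place. The −log10 q-values of the pooled calls were 0.17 and 0.07 at *gcm* and 0.43 and 0.11 at *wrapper*, so each may be background.

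*bdl* (FBgn0028482, 2L 4324554 to 4331830, plus strand), which encodes the immunoglobulin superfamily protein Borderless, and *Eaat1* (FBgn0026439, 2L 9333567 to 9341925, plus strand), which encodes a glutamate transporter, had no pooled call. Each had 1 call in replicate 2 and none in replicate 1. That of *bdl* had a signal of 11.1 (rank 16258), 201 bp upstream of the start site, and that of *Eaat1* had 9.60 (rank 20702) in an intron. The lowest signal in the replicate 2 list was 7.63 and its median 11.7. The −log10 q-values were 0.34 at *bdl* and 0.17 at *Eaat1*, so both calls may be background. *Eaat1* was also the member farthest from any reproducible call, with the nearest IDR summit 46302 bp outside the gene.

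The nearest IDR summits around 5 other uncalled members were nearest to start sites of neighbours. They lay 1235 bp outside *bdl* with a signal of 139, nearest to the start site of *Atet*, and 2646 bp outside *gcm* with 70.7, nearest to *Mtpalpha*. Around *wrapper* the nearest lay 4580 bp away with 91.1 at *Rtf1*, around *Gli* 4832 bp away with 128 at *ND-B17*, and around *Nrx-IV* 6998 bp away with 121 at *RhoGAP68F*. A margin of 5 kb therefore took in 8 of the 10 members, all but *Nrx-IV* and *Eaat1*, where 52.1% of protein-coding genes were called.

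**Figure D2:**
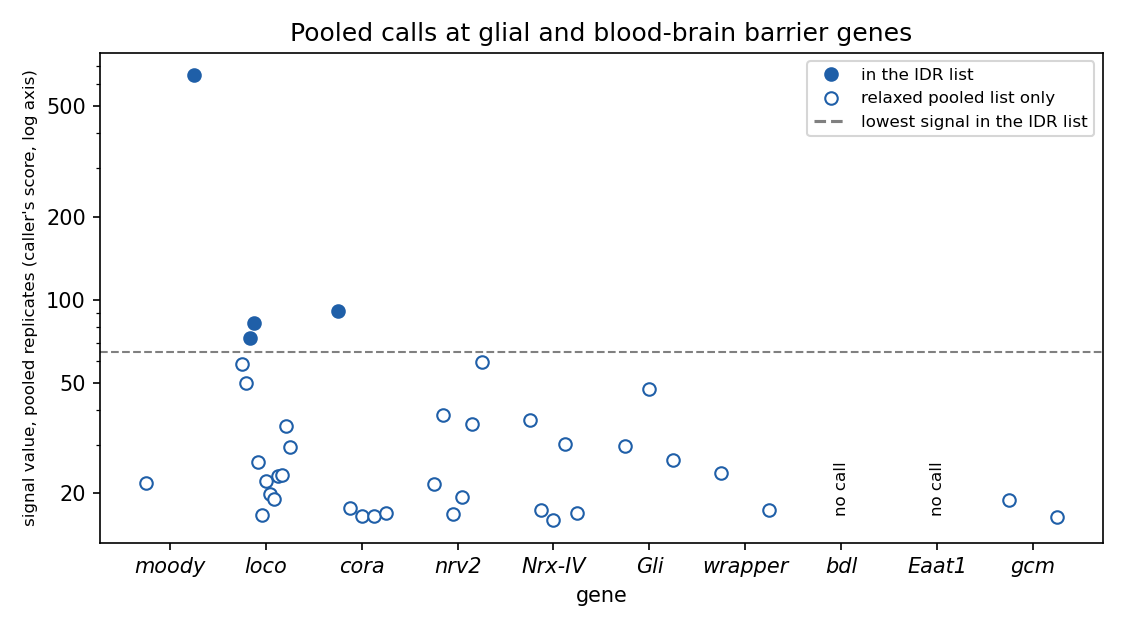
Signal value of every pooled call (vertical, log axis) at each gene (horizontal); filled points are in the IDR list and the dashed line is its lowest signal, 64.9. *moody* holds by far the highest, at 648, and *bdl* and *Eaat1* have none.

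The share of members with a call of any strength lay near that of all genes, without allowance for length. The median length was 7818 bp for the members and 2166 bp for protein-coding genes. The relaxed lists, which fed the IDR step, hold background as well as peaks, per their names. In the pooled list 8 of the 10 members had a call (73.5% of protein-coding genes), in replicate 1 also 8 (74.3%) and in replicate 2 9 (73.7%), and 7 had one in each replicate. Pooled calls per kb of gene and margins ran from 0 at *bdl* and *Eaat1* to 0.607 at *loco*, with 0.541 at *nrv2* and 0.255 at *moody*, against a median of 0.303 over protein-coding genes (quartiles 0 and 0.548). *moody*, with the highest signal, thus had fewer calls per kb than the median gene. By highest pooled signal, 0.904% of protein-coding genes lay above *moody*, 3485 of the 13945 genes above *cora*, 27.6% above *loco*, 35.5% above *nrv2*, 40.8% above *Gli*, 47.2% above *Nrx-IV*, 59.7% above *wrapper* and 67.2% above *gcm*.

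The 38 pooled calls at the members fell mostly at start sites and in introns. A start site of some gene lay within 500 bp of 18 of them, 14 were in introns, 3 in 5′ UTRs, 2 in coding exons and 1 was intergenic. The nearest start site was one of the member for 25 calls and one of another gene for 13. Both replicates had a summit within 200 bp for 15 of the 38, including all 4 reproducible ones. Of the 34 outside the IDR list, 11 had a summit in both, where the share over all 25656 such calls was 36.0%. Their median signal was 22.0, against 22.2 over all calls outside the list. Of these 34, 7 of the 9 with a signal of 30 or more were found in both replicates and 4 of the 25 below 30. Over all calls outside the IDR list the shares were 82.6% at 30 or more and 20.5% below. Since the IDR list was built from these replicates, agreement of its calls describes its making.

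**Figure D3:**
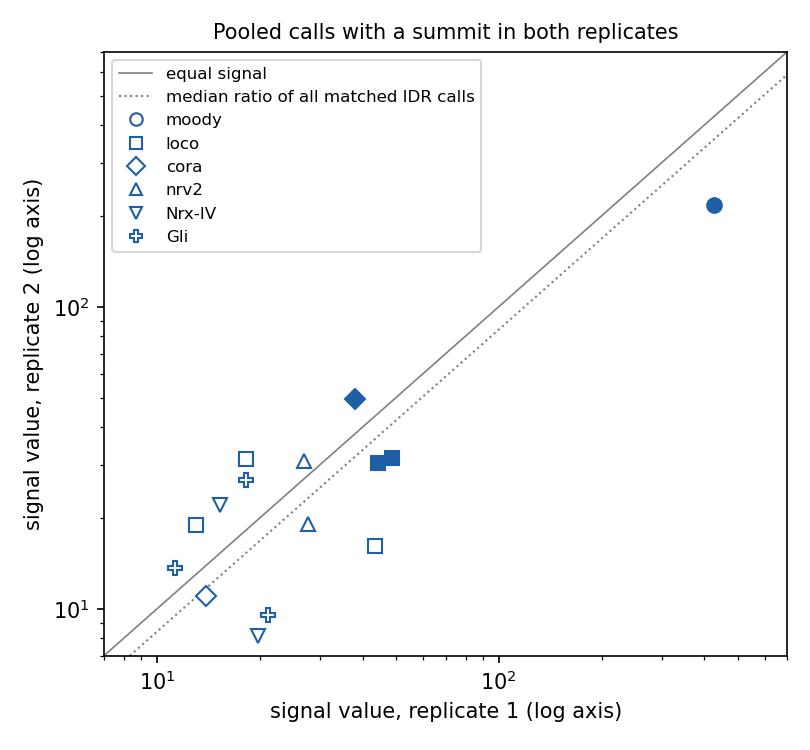
Signal values in replicate 1 (horizontal) and replicate 2 (vertical), both on log axes, of the 15 pooled calls at members with a summit in both replicates; filled symbols are in the IDR list. *moody* stands apart at 428 and 217, and the other calls lie under 50 in each replicate on both sides of the line of equal signal.

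Other genes of the same pathways were taken from 5 lists of 47 genes in all, of which 23 carried a reproducible call (48.9%). The share was 33.4% of protein-coding genes and 42.7% of those in the length range of the members. The listed genes ran from 703 to 67702 bp and were not matched for length. With each call given to its nearest start site, 19 were called, against 22.4% of protein-coding genes. Genes of Moody receptor signalling were called most often, 5 of 6. That list is small, its genes ran from 3388 to 32153 bp, and no share was taken for genes of such length. *Galphai*, the G protein alpha subunit that Loco acts on, had its summit 78 bp upstream of its start site with a signal of 129. *Ggamma1*, a G protein gamma subunit, had 93.8 at 3 bp downstream of its start site. *Pka-R2* and *Pka-C1*, a regulatory and a catalytic subunit of protein kinase A, had 122 and 103 at their strongest summits, both in introns. The strongest summit at *Pka-R2* was nearest to the start site of *mir-4967*. *Pka-R2* had 2 reproducible calls, and the other lay within 500 bp of an own start site. Such a summit was found for 4 of the 6 genes, against 24.6% of protein-coding genes. *Gbeta13F* was the one without a reproducible call, and its strongest pooled call had 54.1 at 17 bp upstream of its start site.

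Of the wider septate junction list, 11 of 20 genes were called, 7 of them with a summit within 500 bp of an own start site. At *M6*, *bark*, *Nrg*, *Mcr* and *Cont* the strongest reproducible summit was nearest to a start site of another gene. Of these, *M6* and *Mcr* also had a summit within 500 bp of an own start site. Among all protein-coding genes 33.4% were called and 24.6% had such a summit. The genes of this list ran from 703 to 67702 bp, and these shares do not allow for length. *nrv1*, the neighbour and paralog of *nrv2*, had the highest signal of the list at 445, 277 bp upstream of its start site, with 239 in replicate 1 and 209 in replicate 2. *Atpalpha*, the alpha subunit of the same pump, had 275 at 182 bp upstream, with 136 in replicate 1 and 49.3 in replicate 2. *cold*, which encodes a small surface protein needed for the junction, had 270 at 51 bp upstream, with 140 in replicate 1 and 129 in replicate 2. *dlg1*, which encodes the scaffold protein Discs large, had 200. Among those without a reproducible call, *crim* had 61.7 and *bou* 48.1 in the pooled list, and the summit at *bou* was nearest to a start site of *ogre*. Pump subunits therefore stood on both sides of the threshold, with *nrv1* at 445 and *nrv2* at 59.5.

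The remaining lists had called shares of 33.3, 28.6 and 37.5%, in the order below, near the 33.4% of all protein-coding genes. Their genes ran from 2320 to 55937 bp, and these shares do not allow for length. Among protein-coding genes in the length range of the members the share was 42.7%. Glial fate genes were called in 2 of 6 cases, *pnt* at 135 and *ttk* at 128, each in an intron and neither within 500 bp of an own start site. *pnt* encodes an ETS transcription factor and *ttk* a zinc finger repressor of neuronal fate. *repo*, the homeodomain gene expressed in nearly all lateral glia, had no call in any list, and *gcm2*, the paralog of *gcm*, had 1 call in replicate 2 alone. Genes of glial transport and metabolism were called in 2 of 7 cases. *Gs2*, glutamine synthetase, had 257 in an intron, 530 bp downstream of a start site, and *Ldh*, lactate dehydrogenase, had 171 at 207 bp upstream. The paralog of *Eaat1*, *Eaat2*, had 30.8, and *Gat*, a GABA transporter, 16.7. Genes of guidance, wrapping and engulfment were called in 3 of 8 cases. *ced-6*, an adaptor for engulfment, had 204 at its strongest summit, which was nearest to *lncRNA:CR45321*. It had 3 reproducible calls and was the 1 gene of this list with a summit within 500 bp of an own start site. *uzip* had 144 in an intron, and *sli*, the midline repellent Slit, had 89.5 at a summit nearest to the start site of *Rif1*. *Col4a1*, a collagen of the basement membrane, had 17.4, and *bero* had no pooled call.

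**Figure D4:**
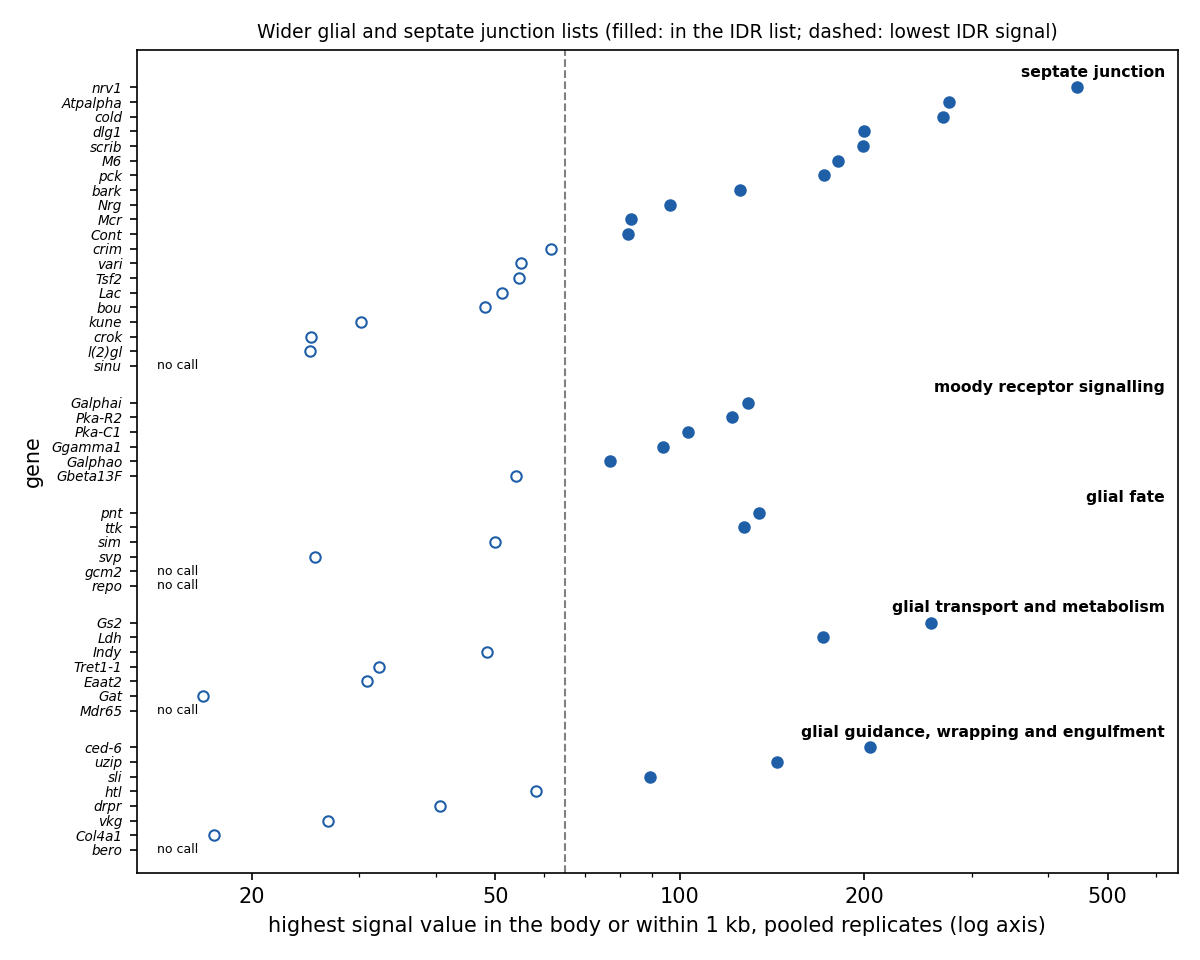
Highest pooled signal (horizontal, log axis) in each gene or within 1 kb of it, for the 47 genes of the wider lists (vertical); filled points are in the IDR list and the dashed line is its lowest signal, 64.9. Septate junction genes run from *nrv1* at 445 to *sinu* without a call, and 5 of the 6 Moody signalling genes lie above the line.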

How the data were processed

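The deposited files were peak lists in narrowPeak layout (10 columns, no header). On dm6 there were relaxed calls for each replicate and for both pooled, made against a control alignment as input for IDR, and an IDR list derived from them, per the deposited file descriptions. The sources used here do not give the aligner, caller or versions. In the deposited lists, column 7 is the caller's signal, a score with no fixed scale, compared within a list or as a ratio of the replicates beside the median ratio. Column 9 of the deposited lists is −log10 of a q-value and was not used to rank. The IDR list was found to be the 4344 strongest pooled calls. The pooled list and replicate 1 end at 30000 calls, and replicate 2 at 29690. Read depth is unknown. The dm3 lists were not used here.

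Summits were placed on Ensembl release 115 genes of the 6 main arms, without transposable elements, with Python 3.11.15, pandas 2.3.3 and numpy 2.4.6. Of the listed names, *aka* and *CG9336* were matched through RefSeq synonyms to *bark* and *bero*. A replicate summit within 200 bp of the summit of a call counted as the same place, so 1 replicate call can match 2 pooled calls. The replicate summits matched to 1 call can therefore lie more than 200 bp from each other. At the *cora* call of 16.6 they lay 183 and 96 bp away on opposite sides. Words were sought 50 bp on each side of a summit. Assignment was tested on simulated data. No test was made, since there was 1 group. Members, lists and words were chosen with earlier results of these data known. Named were all members, the genes with the nearest start sites, up to 4 called and 2 uncalled genes of each list, and the genes next to *moody* by signal. The *Nrx-IV*, *nrv2* and *Gli* windows and the words over whole intervals were chosen after their values were seen. So were the division at a signal of 30 and the row of calls at *loco*. Also named after their values were seen were *sinu* and the called septate junction genes whose strongest summit was nearest to another gene.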

Additional observations from a re-analysis of the deposited data

How the results depend on the processing

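Counts at the members are small and move with the rule. With summits inside the gene alone 1 member and 2 calls were counted, in place of 3 and 4. A margin of 5 kb gave 8 members and 15 calls, and the stronger 2172 calls of the IDR list gave 1 member and 1 call. Leaving out replicate 1 or replicate 2, by taking as many of the strongest calls of the other as the IDR list holds, gave 4 and 3 members, with 5 calls each. The fourth member was *nrv2*. *moody* was called in each setting except that of summits inside the gene, as its summit lies upstream. Interval overlap gave 3 members and 4 calls, and giving each call to the nearest start site 3 members and 3 calls. The strongest pooled calls gave 3 and 4 by construction, since they are the IDR list. All 4 reproducible calls had a summit in both replicates within 200 bp, and also at the shorter and the longer distance tried. The wider lists had 23 called genes and 16 to 34 under the alternatives. With 2 replicates of 1 strain, no control values and unknown depth, an uncalled gene is one not called in these lists.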
